A study of Mus musculus with 24 samples.

Results

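The 40 genes described here encode the machinery by which mTORC1, the growth-controlling kinase complex, senses amino acids. They are listed by function: the mTORC1 subunits, the Rheb and TSC genes, the Rag GTPases with Ragulator, the GATOR1, GATOR2 and KICSTOR complexes, the leucine and lysosomal sensors, and the immediate targets. All 40 were listed among 18777 gene symbols, and 38 reached the filter of a mean of 1 FPKM (fragments per kilobase of transcript, scaled to the mapped fragments of the library) that left 13806 genes. Deptor, at a mean of 0.924 FPKM, and Eif4ebp1, at 0.563 FPKM, lay under it, while Tfeb (2.01), Fnip2 (2.43) and Rhebl1 (2.45) were the members just above it.

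Hypothalamic total RNA came from C57BL6 mice, with no engineered allele or drug in the labels. All mice were sampled at 15 months, after feeding since 12 weeks of age on 1 of 4 diets that shared 18.8% protein, 63.4% carbohydrate and 17.8% fat at 14.4 MJ/kg. The diets BCAA20, BCAA50, BCAA100 and BCAA200 held branched-chain amino acids (leucine, isoleucine and valine) at 20, 50, 100 and 200% of the standard content, with 3 females (replicates 1 to 3) and 3 males (replicates 4 to 6) on each. The 6 BCAA100 libraries, whose titles call the animals Chow, were sequenced in lane 2 and the other 18 in lane 1, so that lane and diet cannot be told apart in any comparison with BCAA100.

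Some libraries stood apart. In BCAA20 male replicate 6, Xist, the female X-inactivation transcript, was at 154 FPKM and the Y-linked Ddx3y at 0 FPKM, against its male label; it was kept under that label. This library and the 3 low in Slc17a7, named next, are called the doubted libraries. Slc17a7, a glutamate transporter of cortical neurons, reached at least 105.7 FPKM in 21 libraries but only 6.23 in replicate 1 of the BCAA50 females and 3.99 and 12.6 in replicates 5 and 6 of the BCAA100 males. Markers of hypothalamic neurons were present in most libraries but varied widely: Pmch ranged from 1.92 to 548 FPKM and Hcrt from 0 to 89.4, while Agrp reached only 0.865. The summed level of 18 such markers ranged from 356 to 512 FPKM on BCAA20 and, among the other diets, from 113 to 1045 (BCAA50), 10.4 to 1087 (BCAA100) and 136 to 643 (BCAA200). The mean log2 level of the hypothalamic markers at or above the filter was also taken relative to all libraries. It was highest in replicate 5 of the BCAA100 males (1.77) and replicate 1 of the BCAA50 females (1.31). Replicate 6 of the BCAA100 males had the lowest value (-2.99). The name doubted is thus no verdict on hypothalamic content. In bulk tissue, fewer cells of a type and less RNA per cell cannot be told apart.

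mTORC1 joins the kinase mTOR to raptor, which recruits substrates, and promotes protein synthesis when nutrients are plentiful. When amino acids are available, Rag GTPase heterodimers of RagA or RagB with RagC or RagD, held on the lysosome by the Ragulator scaffold, bring mTORC1 to the lysosomal surface, where Rheb activates it. The TSC complex switches Rheb off, GATOR1 inactivates RagA and RagB, and GATOR2 opposes GATOR1. Leucine releases leucine-binding Sestrin proteins, such as that encoded by Sesn1, from GATOR2. In the hypothalamus this pathway is known as a link between leucine and food intake. It signals largely through GTP loading, protein binding and phosphorylation, none of which is measured by RNA levels.

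TFEB, a transcription factor that mTORC1 keeps out of the nucleus, binds E-boxes with the core CACGTG, a motif that is its own reverse complement and therefore reads the same on both strands. Promoter windows of 300 bases (250 before to 50 after the start, from RefSeq on GRCm38.p6) were matched by symbol to 33 of the 38 genes, and 7 of these held CACGTG: Rheb, Tbc1d7, Rragb, Rragc, Lamtor1, Lamtor4 and Fnip1. That was 21.2%, against 12.0% of 9216 genes at or above the FPKM filter and 8.09% of 27025 genes with a window. The longer form TCACGTGA, which contains the core, was in 0 of the 33, in 2.27% of the genes at or above the filter and in 1.12% of all genes with a window. A match describes the letters and is no evidence of binding. The windows of 4 Rag and Ragulator genes are shown because their RNA levels are described in detail, 5′ to 3′ on the plus strand, which is the strand of each gene, with the core in capitals. Rragb (chrX:153139708-153140007) held 3 matches, the first 127 bases before the start, and Rragc (chr4:123917183-123917482) held 1, at 112 bases. Lamtor1 (chr7:101905587-101905886) held 1 match 68 bases before the start, and Lamtor4 (chr5:138255232-138255531) held 2, the first at 120 bases.
Rragb: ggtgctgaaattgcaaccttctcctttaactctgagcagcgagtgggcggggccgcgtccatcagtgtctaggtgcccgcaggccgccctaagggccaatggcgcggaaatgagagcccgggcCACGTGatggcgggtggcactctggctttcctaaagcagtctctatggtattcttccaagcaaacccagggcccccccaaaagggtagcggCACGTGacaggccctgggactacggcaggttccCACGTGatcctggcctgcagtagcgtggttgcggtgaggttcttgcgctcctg
Rragc: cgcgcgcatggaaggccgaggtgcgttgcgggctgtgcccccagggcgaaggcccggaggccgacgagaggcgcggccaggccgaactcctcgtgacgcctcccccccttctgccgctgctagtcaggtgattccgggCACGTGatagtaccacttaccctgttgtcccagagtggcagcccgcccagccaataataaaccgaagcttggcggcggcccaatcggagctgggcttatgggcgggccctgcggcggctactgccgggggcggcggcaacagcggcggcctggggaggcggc
Lamtor1: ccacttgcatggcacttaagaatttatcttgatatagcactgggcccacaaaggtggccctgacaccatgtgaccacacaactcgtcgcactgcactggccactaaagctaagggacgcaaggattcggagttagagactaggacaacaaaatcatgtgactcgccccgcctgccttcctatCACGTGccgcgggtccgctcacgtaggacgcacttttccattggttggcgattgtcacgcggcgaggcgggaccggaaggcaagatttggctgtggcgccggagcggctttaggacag
Lamtor4: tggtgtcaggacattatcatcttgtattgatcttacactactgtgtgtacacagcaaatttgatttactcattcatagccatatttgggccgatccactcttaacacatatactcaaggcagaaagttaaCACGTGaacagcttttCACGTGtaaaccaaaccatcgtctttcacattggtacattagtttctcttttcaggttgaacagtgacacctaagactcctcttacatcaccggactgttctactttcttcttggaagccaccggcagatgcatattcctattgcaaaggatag

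Levels were compared between genes in FPKM, which is per transcript length. The 38 genes had a median of their means of 11.3 FPKM, against 8.12 FPKM for all 13806. At the top were Rraga, which encodes RagA (55.4 FPKM), the mTORC1 activator Rheb (41.8) and Rragb, encoding RagB (35.5). The 4 mTORC1 subunit genes that passed the filter lay close together, between 10.4 and 14.4 FPKM. GATOR1 and KICSTOR genes ranged from 5.94 (Kptn, a KICSTOR subunit) to 18.0 FPKM (Nprl2), and GATOR2 genes from 3.07 (Wdr59) to 23.9 (Sec13, whose protein is also part of the COPII coat and nuclear pore).

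**Figure D1:**
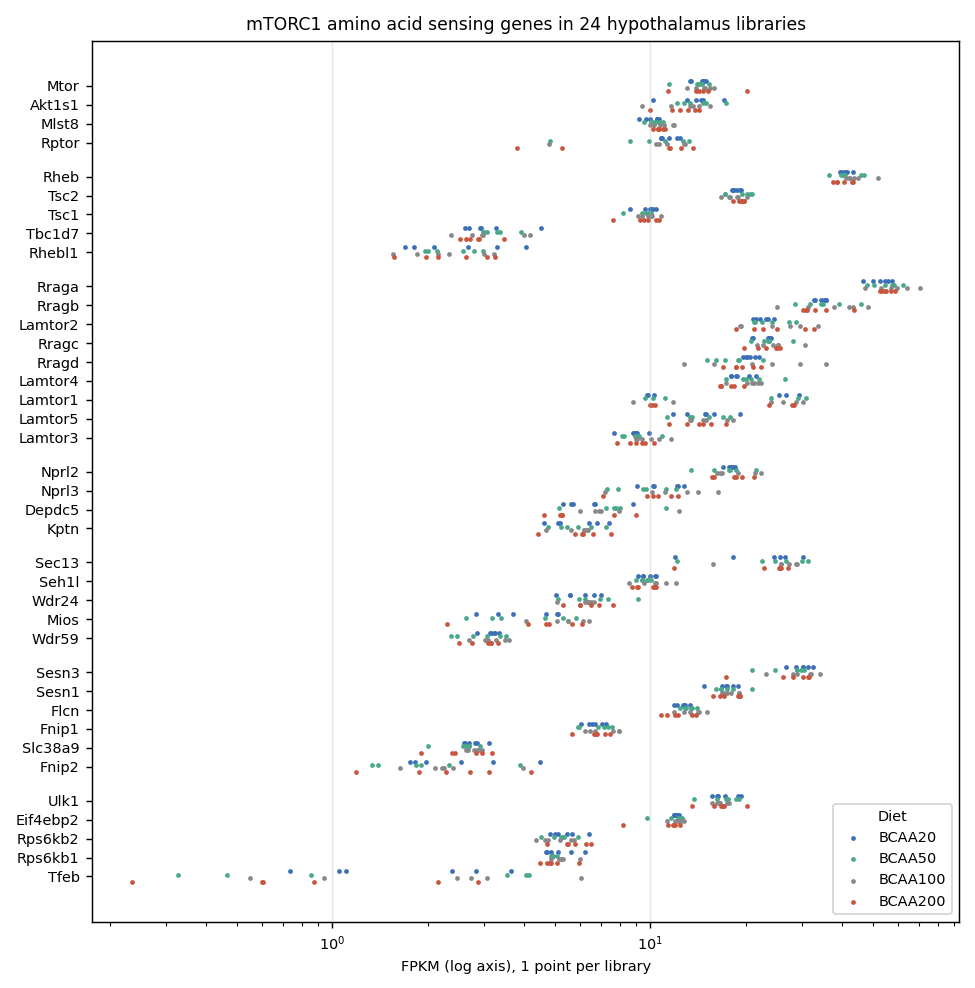
FPKM of each of the 38 genes at or above the filter in the 24 libraries, on a log axis. Points are marked by diet and genes grouped by role. Rraga (mean 55.4 FPKM) and Rheb (41.8) lead, and Lamtor1, Rptor and Tfeb fall into separated levels.

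In the mTORC1 complex, Mtor, the kinase, had a lowest, median and highest level of 13.3, 14.6 and 15.0 FPKM on BCAA20, 11.4, 14.1 and 15.2 on BCAA50, 13.02, 14.8 and 15.8 on BCAA100, and 11.4, 14.4 and 20.2 on BCAA200. The diets overlapped, and the highest library was on BCAA200. Mlst8, a subunit shared with mTORC2, was measured at 9.21 to 10.6 FPKM on BCAA20 (median 10.2), 9.52 to 10.95 on BCAA50 (10.3), 9.95 to 11.9 on BCAA100 (10.9), and 10.2 to 11.1 with a median of 10.6 on BCAA200. It varied least of the 38 genes: its within-group SD of 0.0751 (log2) was at percentile 0.594 of all genes. In each library Mlst8 was below Mtor, with a ratio of 0.525 to 0.960.

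Rheb was at 39.5, 40.96 and 43.3 FPKM (lowest, median and highest) on BCAA20, 36.5, 40.5 and 46.8 on BCAA50, 41.1, 42.96 and 52.1 on BCAA100, and 37.6, 39.6 and 43.3 on BCAA200. Its relative Rhebl1 was far lower in each library, by a factor of up to 26.4. Tsc2, the GTPase-activating subunit that turns Rheb off, was at 18.0, 18.5 and 19.2 FPKM on BCAA20, 17.1, 19.8 and 20.9 on BCAA50, 16.7, 18.2 and 20.1 on BCAA100, and 18.2, 19.3 and 19.6 on BCAA200. Tsc2 had the second smallest spread, with an SD of 0.0883 (log2; percentile 1.99), and exceeded its partner Tsc1 in all 24 libraries by 1.71 to 2.49 times.

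Among the Rag genes, Rraga was at 46.6, 53.7 and 57.3 FPKM (lowest, median and highest) on BCAA20, 47.995, 56.1 and 62.2 on BCAA50, 47.2, 58.3 and 70.3 on BCAA100, and 52.8, 54.6 and 58.5 on BCAA200. Its close paralog Rragb was at 32.7, 34.8 and 35.6 FPKM on BCAA20, 28.4, 34.5 and 45.8 on BCAA50, 24.9, 39.97 and 48.2 on BCAA100, and 30.3, 32.1 and 43.6 on BCAA200. Both overlapped across diets, and Rraga exceeded Rragb in all 24 libraries, by 1.34 to 2.12 times (median 1.58). The sources used here do not say how reads were assigned between close paralogs, so these ratios are uncertain.

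Rragc, encoding RagC, was at 20.9, 23.5 and 23.9 FPKM on BCAA20, 20.7, 23.5 and 28.1 on BCAA50, 21.6, 24.7 and 30.7 on BCAA100, and 19.7, 23.9 and 25.6 on BCAA200. Rragd, encoding the alternative partner RagD, was at 19.6, 20.3 and 21.9 FPKM on BCAA20, 15.0, 18.0 and 22.5 on BCAA50, 12.7, 22.4 and 35.5 on BCAA100, and 17.0, 19.0 and 22.3 on BCAA200. The widest range of Rragd was on BCAA100, and Rragc exceeded it in 20 of 24 libraries. The ratio of Rragc to Rragd was 0.607 to 1.98.

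Of the Ragulator genes, Lamtor2 was the highest at 24.4 FPKM and Lamtor3 the lowest at 9.26. Lamtor4 was at 17.9, 18.6 and 21.5 FPKM (lowest, median and highest) on BCAA20, 17.3, 20.3 and 26.5 on BCAA50, 17.3, 21.0 and 22.2 on BCAA100, and 16.5, 17.3 and 19.7 on BCAA200. The BCAA200 libraries had the lowest median, yet their range overlapped that of each other diet.

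The sensor genes differed in level. Sesn3, a Sestrin gene, was at 26.6, 30.2 and 32.4 FPKM (lowest, median and highest) on BCAA20, 20.8, 28.8 and 30.3 on BCAA50, 23.045, 30.4 and 34.1 on BCAA100, and 17.3, 29.1 and 31.6 on BCAA200. Sesn1, encoding a leucine-binding Sestrin, was at 14.7, 17.3 and 18.9 FPKM on BCAA20, 16.1, 17.0 and 20.8 on BCAA50, 16.7, 17.6 and 19.0 on BCAA100, and 15.7, 17.9 and 19.1 on BCAA200. The diets overlapped for both, and Sesn3 exceeded Sesn1 in 23 of 24 libraries.

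Slc38a9, the lysosomal arginine sensor, was at 2.59, 2.76 and 3.11 FPKM on BCAA20, 2.00, 2.65 and 2.92 on BCAA50, 2.62, 2.83 and 2.95 on BCAA100, and 1.89, 2.63 and 3.18 on BCAA200. Flcn, encoding the folliculin GTPase-activating protein for RagC and RagD, was at 11.9, 12.7 and 13.3 FPKM on BCAA20, 12.4, 13.2 and 14.0 on BCAA50, 11.9, 13.7 and 15.0 on BCAA100, and 10.8, 12.1 and 13.9 on BCAA200. Both genes overlapped across the diets, and Flcn had the third smallest spread, an SD of 0.105 (log2; percentile 4.97). Of its partners, Fnip1 exceeded Fnip2 in all 24 libraries.

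Among the targets, Eif4ebp2, a translation repressor that mTORC1 inactivates, was at 11.8, 12.0 and 12.3 FPKM on BCAA20, 9.73, 12.3 and 12.6 on BCAA50, 11.3, 12.3 and 12.7 on BCAA100, and 8.20, 11.8 and 12.4 on BCAA200. Its relative Eif4ebp1 was at 0.174, 0.796 and 1.09 FPKM on BCAA20, 0.094, 0.418 and 1.10 on BCAA50, 0.061, 0.353 and 0.990 on BCAA100, and 0.120, 0.461 and 1.55 on BCAA200. Thus Eif4ebp2 lay above Eif4ebp1 at each of these points. Rps6kb1, encoding S6 kinase 1, was at 4.70, 5.01 and 6.23 FPKM on BCAA20, 4.86, 4.91 and 5.07 on BCAA50, 4.87, 5.26 and 5.99 on BCAA100, and 4.49, 4.85 and 5.97 on BCAA200. Its paralog Rps6kb2 was higher in 15 of 24 libraries.

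Spread between animals of the same diet and sex was small for most of these genes. The median within-group SD was 0.164 (log2) for the 38 genes and 0.230 for all 13806, and 26 of the 38 lay below the all-gene median. The genes were not matched for level, here or in the interval counts below, and the 38 had the higher median level (11.3 against 8.12 FPKM). At the other end, Tfeb (SD 1.00, percentile 98.2), Lamtor1 (0.794, percentile 96) and Rptor (0.523, percentile 88.6) varied most.

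The widest diet contrast within a lane set BCAA200 against BCAA20. None of the 38 genes passed an adjusted p of 0.05 in limma, which called 0% of all 13806 genes (0 of 13806), and 0 of the 38 had an unadjusted p under 0.05 where 2.89% of all genes did. Differences, in log2 of FPKM plus 0.5, ran from -0.58 (Tfeb) to 0.12 (Lamtor2), with 15 genes above 0 and 23 below, and a median of -0.03 beside -0.01 for all genes. By role, 2 of 4 mTORC1 genes, 1 of 5 TSC and Rheb genes, 4 of 9 Rag and Ragulator genes, 2 of 4 GATOR1 and KICSTOR genes, 3 of 5 GATOR2 genes, 2 of 6 sensor genes and 1 of 5 targets were above 0.

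The lowest unadjusted p in each direction belonged to Mlst8, with a log2 difference of 0.08 (SE 0.0579), and to Eif4ebp2, with -0.11 (SE 0.0801); the adjusted p was 0.9996 for each in limma. Mtor differed by 0.04 (95% interval -0.14 to 0.23) and Rraga by 0.06 (-0.12 to 0.24). For Sesn1 the difference was 0.04 (-0.12 to 0.20), and for Rps6kb1 it was -0.06 (-0.21 to 0.10). A p over the threshold does not show equality, but the intervals bound the difference. The 95% interval lay within 0.5 log2 units of 0 for 33 of the 38 genes, against 68.6% of all genes; the exceptions were Rptor, Lamtor1, Mios, Fnip2 and Tfeb.

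**Figure D2:**
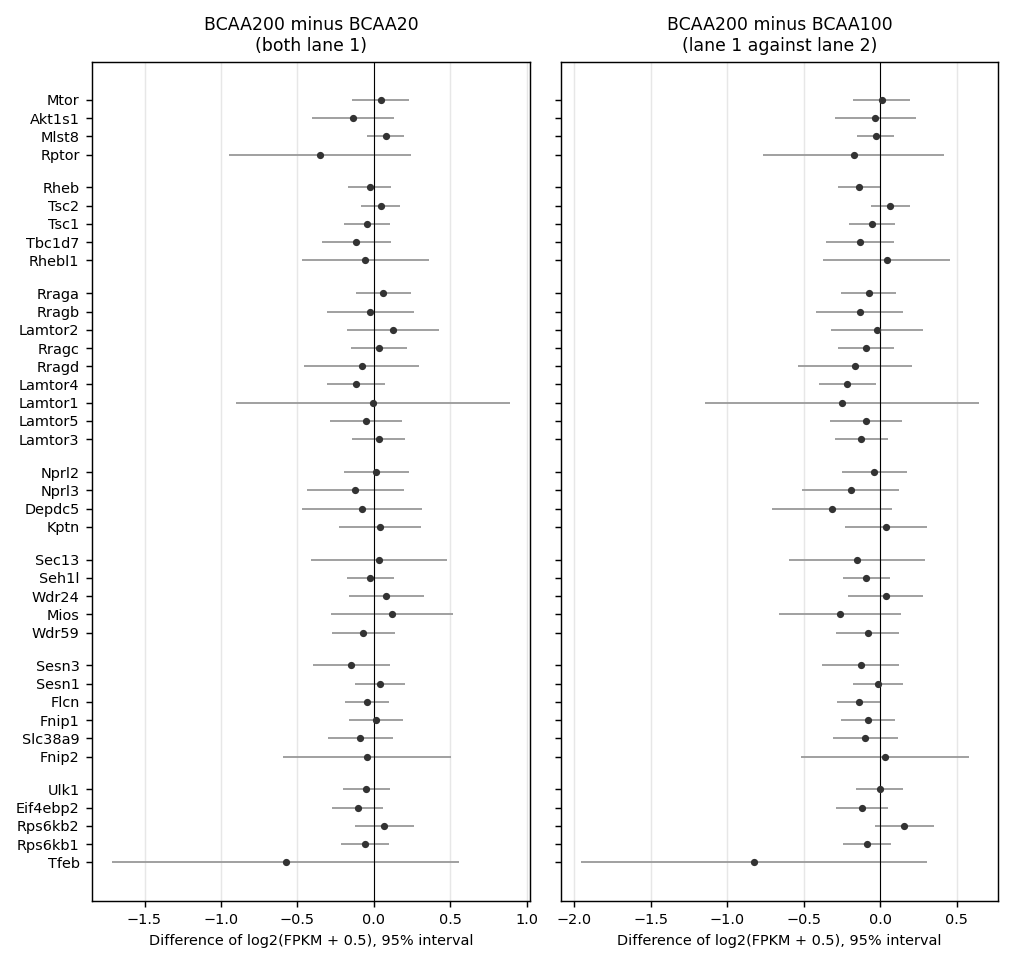
Log2 differences of the 38 genes with 95% intervals from limma, grouped by role. Values centre near 0, with Tfeb at -0.58 in BCAA200 against BCAA20 the lowest, and the widest intervals belong to Tfeb, Lamtor1 and Rptor.

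The other lane 1 comparisons also gave no call. In BCAA200 against BCAA50, 0 of 38 genes passed (0% of all genes) and 1 had an unadjusted p under 0.05, where 2.52% of all genes did. It was Lamtor4, at -0.24 (SE 0.0893, 95% interval -0.43 to -0.05, adjusted p = 0.99994 in limma). In the other direction, Rps6kb2 differed by 0.12. In BCAA50 against BCAA20, 0 of 38 passed (0% of all genes) and 0 had an unadjusted p under 0.05 (2.68% of all genes); Nprl3, of GATOR1, was at -0.21 and Lamtor4 at 0.12. The 95% interval lay within 0.5 log2 units of 0 for 31 of 38 genes in BCAA200 against BCAA50 (68.9% of all genes) and for 30 in BCAA50 against BCAA20 (69.0%). Lamtor4 was thus above BCAA20 on BCAA50 and below it on BCAA200, neither past the threshold. Over BCAA20, BCAA50 and BCAA200, slopes per doubling of BCAA content ran from -0.18 (Tfeb) to 0.04 (Mios), and 0 of 38 passed (0% of all genes); 0 had an unadjusted p under 0.05, against 2.83% of all genes. Lamtor4 (-0.04, SE 0.0267) and Mlst8 (0.02) had the lowest p in each direction.

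Rps6kb2, encoding S6 kinase 2, was at 4.82, 5.29 and 6.42 FPKM (lowest, median and highest) on BCAA20, 4.52, 5.28 and 5.94 on BCAA50, 4.37, 4.98 and 5.74 on BCAA100, and 4.73, 5.66 and 6.49 on BCAA200. Nprl3 was at 9.06, 11.2 and 12.7 FPKM on BCAA20, 7.28, 9.54 and 12.1 on BCAA50, 7.21, 12.0 and 16.4 on BCAA100, and 7.10, 10.4 and 12.2 on BCAA200. Both overlapped across the diets.

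Against BCAA100, 0 of 38 genes passed in limma in BCAA20 (0% of all genes), BCAA50 (0%) or BCAA200 (0.0145%). Unadjusted p under 0.05 was met by 0, 0 and 1 of the 38, against 7.09, 7.65 and 11.7% of all genes. These contrasts share the BCAA100 libraries. The 1 was Lamtor4 in BCAA200, at -0.22 (SE 0.0893, 95% interval -0.40 to -0.03, adjusted p = 0.365). Rps6kb2 had the lowest p in the other direction in BCAA200 (0.16) and in BCAA20 (0.09). Mios, a GATOR2 subunit, was at -0.38 in BCAA20 (SE 0.191, adjusted p = 0.714) and -0.39 in BCAA50 (adjusted p = 0.671), where Tsc2 (0.07) led the other direction.

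Mios was at 2.83, 4.20 and 5.13 FPKM (lowest, median and highest) on BCAA20, 2.64, 4.03 and 5.82 on BCAA50, 4.06, 5.51 and 6.41 on BCAA100, and 2.29, 4.73 and 6.09 on BCAA200, so that each diet overlapped BCAA100. More of the 38 genes were below BCAA100 than above it. In BCAA20, 8 were above 0 and 30 below, in BCAA50 9 and 29, and in BCAA200 7 and 31. Those above 0 were 21.1, 23.7 and 18.4% of the 38, against 40, 38.1 and 37.4% of all genes. The medians of the 38 were -0.05, -0.07 and -0.09, beside -0.04, -0.04 and -0.05 for all genes. With columns scaled to equal medians, 14, 13 and 13 of the 38 genes were above 0, and with quantile normalization 15, 12 and 12. Markers of neighbouring tissue differed in the same contrasts. Of 11 cortex and hippocampus markers, 11, 9 and 9 were above 0 in BCAA20, BCAA50 and BCAA200 against BCAA100, with medians of 0.81, 0.73 and 0.93 log2 units, and 6 had an unadjusted p under 0.05 in each. Of 10 oligodendrocyte markers, 0 were above 0 in each contrast. None of these markers passed adjustment over all genes, and their part in the members' values was not tested. The 95% interval lay within 0.5 log2 units of 0 for 30, 30 and 29 of the 38 genes, against 65.1, 64.8 and 62.5% of all genes. In the F test over the 4 diets 0 of 38 passed (0% of all genes); 0 had an unadjusted p under 0.05 (5.95% of all genes), and the lowest was that of Lamtor4 (adjusted p = 0.837). Complete separation of 6 libraries from the other 6 was seen in 0 of the 38 genes in each of the 6 pairs of diets. Among all genes it was seen in 0.145% for BCAA200 against BCAA20, 0.0869% for BCAA200 against BCAA50 and 0.116% for BCAA50 against BCAA20, and in 0.369, 0.225 and 0.565% for BCAA20, BCAA50 and BCAA200 against BCAA100.

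Intake of branched-chain amino acids, deposited per animal in a unit that is not stated, averaged 0.417 ± 0.0344 (SD, n = 6) on BCAA20 and 5.26 ± 0.559 on BCAA200. The slope with intake was fitted over all libraries with sex as the only other term. Intake nearly follows diet, and BCAA100 was in lane 2, so this slope is not independent of the diet contrasts or of lane. Per doubling of intake, 0 of 38 genes passed in limma (0% of all genes) and 0 had an unadjusted p under 0.05 (2.23% of all genes). Slopes ran from -0.12 (Tfeb) to 0.06 (Mios), with Mlst8 (0.03) and Akt1s1, encoding the inhibitory subunit PRAS40 (-0.04), having the lowest p in each direction. Among animals of the same diet and sex, 0 of 38 passed (0% of all genes). There, 2 had an unadjusted p under 0.05, where 3.03% of all genes did: Rragd, at 1.27 per doubling (SE 0.495, 95% interval 0.23 to 2.31), and Depdc5, of GATOR1, at -1.16 (SE 0.538). In the same fit, 10 of 10 striatal markers had slopes above 0, with a median of 3.81 per doubling, 5 with an unadjusted p under 0.05 and 0 past adjustment. The slope of Rragd stayed above 0 under all 38 alternatives, among them a fit that added scores of regional markers. The part of the striatal markers alone in that slope was not tested. In the authors' deposited table, the Pearson correlation with intake ranged from -0.413 (Lamtor4, unadjusted p = 0.0447) to 0.337 (Mlst8). In the authors' deposited table Lamtor4 was the 1 of the 38 genes with an unadjusted p under 0.05, against 2.33% of all 13806 genes. Depdc5 was at 5.29, 6.17 and 8.78 FPKM on BCAA20, 5.15, 7.72 and 11.2 on BCAA50, 5.998, 6.96 and 12.3 on BCAA100, and 4.64, 5.28 and 8.98 on BCAA200.

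Between the sexes, averaged over diets and with BCAA20 replicate 6 kept as labelled, male, 0 of 38 genes passed in limma, against 0.0652% of all genes (9 of 13806). The count was also 0 without that library. Differences of males from females ran from -0.33 (Lamtor1) to 0.33 (Sec13), and 34 of 38 intervals lay within 0.5 log2 units of 0, against 82.6% of all genes. Of the 38, 2 had an unadjusted p under 0.05, against 4.27% of all genes: Sec13 and Tbc1d7, a TSC subunit, at 0.19 (SE 0.0760, adjusted p = 0.941). Lamtor5 was at -0.16, with the lowest p among genes lower in males. For the difference of the sexes in their BCAA200 against BCAA20 contrast, 0 of 38 passed (0% of all genes). Ulk1, the autophagy-starting kinase that mTORC1 inhibits, was the 1 gene with an unadjusted p under 0.05 (0.35, SE 0.146), against 3.56% of all genes; Lamtor3 (-0.23) led the other direction. Tbc1d7 was at 2.61, 2.92 and 4.54 FPKM on BCAA20, 2.99, 3.18 and 3.93 on BCAA50, 2.36, 2.97 and 4.19 on BCAA100, and 2.52, 2.78 and 3.46 on BCAA200.

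The genes with the widest spread fell into separate levels. Lamtor1, the subunit that anchors Ragulator to the lysosome, was at 8.82 to 11.8 FPKM in 11 libraries and at 23.6 to 30.9 in the other 13, with none between. The higher level was seen in 3, 3, 4 and 3 of the 6 libraries of BCAA20, BCAA50, BCAA100 and BCAA200, and in 8 females and 5 males. Its median was 17.8, 17.5, 25.0 and 16.9 FPKM on the 4 diets in that order. Lamtor1 (chr7:101905904-101926675, plus strand, GRCm38, GENCODE M21) overlaps Tomt and Lrrc51 on the opposite strand, and the sources used here do not say how reads in the overlap were counted.

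Tfeb (chr17:47737030-47792419, plus strand) was at 0.234 to 1.10 FPKM in 12 libraries and 2.15 to 6.06 in 12, the higher ones being 3, 3, 4 and 2 libraries of BCAA20, BCAA50, BCAA100 and BCAA200. Its lowest, median and highest FPKM were 0.735, 1.74 and 3.63 on BCAA20, 0.328, 2.20 and 4.15 on BCAA50, 0.553, 2.60 and 6.06 on BCAA100, and 0.234, 0.742 and 2.87 on BCAA200. The diets overlapped throughout. Rptor, encoding raptor (chr11:119602905-119899576, plus strand), was at 3.82 to 5.25 FPKM in 4 libraries and 8.64 to 13.6 in 20. The 4 were male replicate 6 of BCAA50 and of BCAA100, and female replicate 2 and male replicate 4 of BCAA200. Its medians were 11.2, 10.5, 10.96 and 11.5 FPKM on BCAA20, BCAA50, BCAA100 and BCAA200.

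Lamtor1 and Tfeb were both at their higher level in 10 libraries and both at their lower level in 9. They differed in the other 5. Rptor and Lamtor1 were both higher in 10 libraries and both lower in 1, and Rptor and Tfeb in 10 and 2. How often other genes with separate levels share them was not counted. Separation of this kind, a gap of at least 0.5 log2 units with 4 or more libraries on each side, was found in 3 of 38 genes (7.89%) and in 4.24% of all genes.

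**Figure D3:**
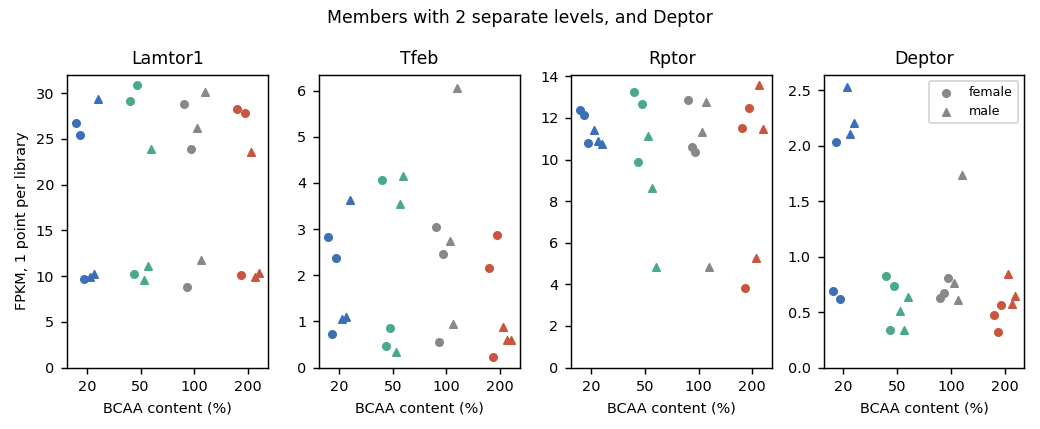
FPKM of Lamtor1, Tfeb, Rptor and Deptor in each library by diet, on linear axes. Lamtor1, Tfeb and Rptor show separated levels that occur on several diets, while Deptor is above 2 FPKM only in 4 BCAA20 libraries.

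Deptor, encoding an inhibitory subunit of mTOR complexes, was under the filter and stood outside the counts above. On BCAA20 its level was 0.686, 2.035 and 0.615 FPKM in female replicates 1 to 3 and 2.529, 2.107 and 2.205 in the libraries labelled male, the last being replicate 6, whose sex-linked genes go against its label. The lowest, median and highest were 0.337, 0.570 and 0.822 FPKM on BCAA50, 0.609, 0.716 and 1.74 on BCAA100, and 0.321, 0.566 and 0.841 on BCAA200. Females 1 and 3 on BCAA20 lay within the range of the other diets and the other 4 lay above it. In a limma fit with no filter (18777 genes), BCAA200 was below BCAA20 by a log2 difference of -0.95 (SE 0.197, 95% interval -1.36 to -0.54), and the adjusted p was 0.968. BCAA50 against BCAA20 gave -0.96 (adjusted p = 1), and BCAA20 against BCAA100 gave 0.62 (adjusted p = 0.571). The difference did not pass the threshold, and the depth behind these low values is unknown. Deptor (chr15:55112317-55259271, plus strand) overlaps the predicted gene Gm9920. Eif4ebp1, the other gene under the filter, differed by -0.11 between BCAA200 and BCAA20 (SE 0.357).

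Levels of long transcripts were low in a pair of libraries, relative to the libraries of the same diet and sex. The 38 genes were split at 3490 bases of their longest coding transcript, into 19 longer and 19 shorter. In BCAA50 male replicate 5, the longer genes had a median deviation of -0.17 log2 units from the mean of the 3 libraries of its diet and sex, with 14 of 19 below 0, and the shorter genes 0.09. In BCAA200 female replicate 2 the values were -0.20, with 15 of 19 below 0, and 0.02. Across the 38 genes, which are not independent replicates, Spearman's rho of deviation with length was -0.49 and -0.57 in these libraries. Across 11486 genes with a length it was -0.43 and -0.31, in a range over the 24 libraries of -0.43 to 0.29. Across the 38 genes the range was -0.57 to 0.55. BCAA100 male replicate 5 was at -0.275 across all genes with a length, and BCAA20 male replicate 6 at -0.453 across the 38. Each group mean includes the library itself, so a low library cannot be told from high partners. Mtor (11.4 FPKM) and Slc38a9 (2.00) in the former, and Sesn3 (17.3) and Eif4ebp2 (8.20) in the latter, were the lowest of their diet. The part of length in these values was not tested.

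**Figure D4:**
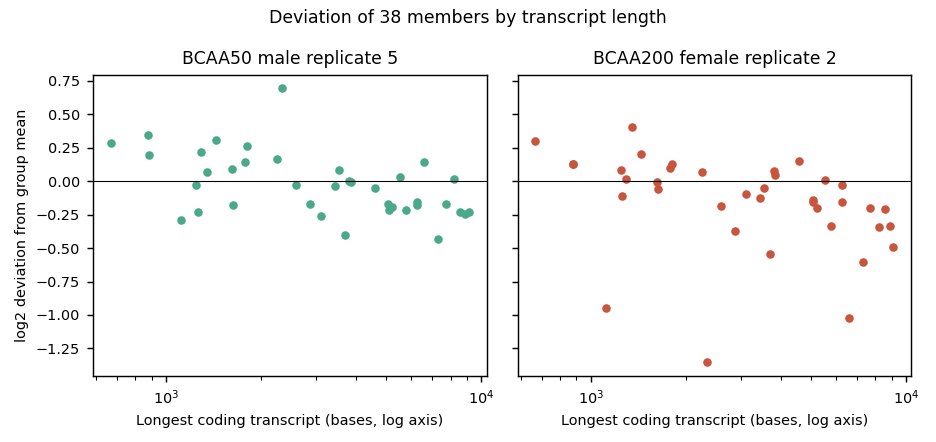
Deviation of each of the 38 genes from its mean over the 3 libraries of the same diet and sex (log2) against transcript length in bases (log axis), in the libraries with low levels of long transcripts. Longer genes tend to lie lower, with rho of -0.49 in BCAA50 male replicate 5 and -0.57 in BCAA200 female replicate 2.

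The Rag genes varied with a score of cortex markers, which went along with markers of other tissue. A cortex and hippocampus score, the mean log2 level of its markers, was fitted beside the 8 group means, a test added after the data were seen. In limma, 5 of 38 genes passed, against 15.9% of all genes (2202 of 13806), a share near that background, so the count is not particular to these genes. All 4 Rag GTPase genes were among the 5. In the same fit, 5 of 5 thalamus and 10 of 10 oligodendrocyte markers were called, all with slopes below 0. All 10 striatal markers had slopes above 0, and 2 of them were called. Which of these tissues the Rag genes follow was not tested. Per log2 unit of the score, Rragb changed by -0.28 (SE 0.0676, adjusted p = 0.00972), Rraga by -0.16 (SE 0.0450, adjusted p = 0.0202) and Rragc by -0.16 (SE 0.0476, adjusted p = 0.0314), while Rragd changed by 0.35 (SE 0.0923, adjusted p = 0.0147) and Rps6kb2 by 0.17 (SE 0.0493, adjusted p = 0.0293). The 3 libraries low in Slc17a7 had the highest Rraga of the 24, at 62.2, 70.3 and 63.9 FPKM in BCAA50 female replicate 1 and BCAA100 male replicates 5 and 6, in that order. Without those 3 libraries 0 of 38 genes passed, while the slopes were -0.61 for Rragb, -0.20 for Rraga, -0.23 for Rragc, 0.34 for Rragd and 0.41 for Rps6kb2 (adjusted p from 0.103 to 0.485 in limma). With a single library left out, the count fell to 2 without BCAA50 female replicate 1 or without BCAA50 female replicate 2. It was 1 without BCAA100 male replicate 4 and 3 without BCAA100 male replicate 6.

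**Figure D5:**
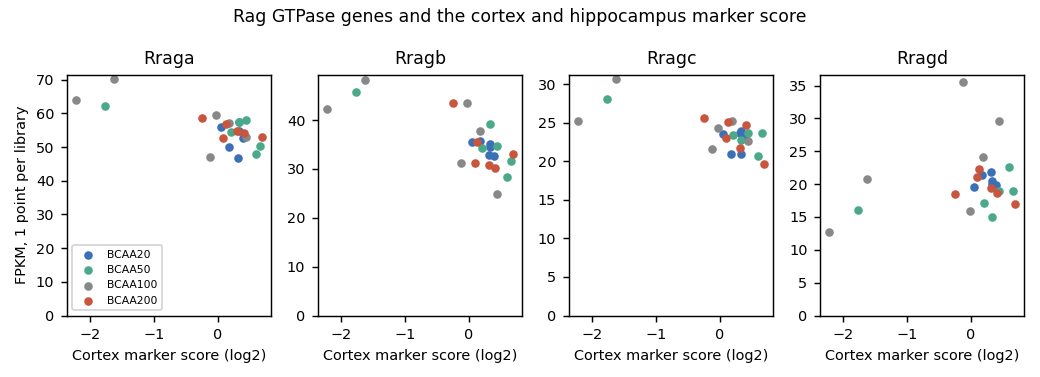
FPKM of Rraga, Rragb, Rragc and Rragd in each library against its cortex and hippocampus marker score (mean log2 level relative to all libraries). The 3 libraries low in Slc17a7 sit at the left, with Rraga at 62.2 to 70.3 FPKM.

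In BCAA100 the level of Rragd also varied with striatal markers. It was 35.5 FPKM in male replicate 4, 29.5 in female replicate 3, 24.1 in female replicate 2, 20.8 in male replicate 5, 15.9 in female replicate 1 and 12.7 in male replicate 6. Drd2, a dopamine receptor gene of striatal neurons, was at 20.9, 21.6, 11.3, 17.6, 9.01 and 10.9 FPKM in the same libraries. The mean log2 level of 10 striatal markers, relative to all libraries, was 1.64, 1.44, 0.726, 1.10, -1.37 and -1.87 there. On BCAA20 this mean ran from -1.23 to 1.15 and Drd2 from 3.17 to 18.7 FPKM, while Rragd stayed at 19.6 to 21.9 FPKM. On BCAA50 the mean was lowest in female replicate 1 (-1.55) and highest in female replicate 3 (0.301). Rragd there deviated from the mean of its diet and sex by -0.23 and -0.00358 (log2). On BCAA200 the mean was lowest in male replicate 4 (-1.35) and highest in female replicate 3 (1.32), with deviations of -0.11 and 0.16. The part of tissue composition in the level of Rragd was not tested.

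Of 116 further genes of the pathway, 109 passed the filter: 17 of 20 for other sensing proteins, 20 of 21 for mTORC2 and upstream kinases, 19 of 20 for other substrates, 18 of 18 for the vacuolar ATPase, 25 of 25 lysosomal genes known as TFEB targets and 10 of 12 targets of the stress factor ATF4. None was called in limma in the diet, sex or intake comparisons. In BCAA200 against BCAA20, the genes with the lowest unadjusted p in 3 of these lists were Aldh18a1, a proline-synthesis enzyme and ATF4 target, at -0.34, Map4k3, an amino acid-responsive kinase, at 0.14, and Naglu, a lysosomal enzyme, at -0.20. None passed adjustment over all genes. The list medians were -0.12 for ATF4 targets, -0.04 for TFEB targets, -0.09 for mTORC2 and upstream kinases -0.02 for other sensing proteins, -0.00433 for other substrates and 0.000253 for the vacuolar ATPase, beside -0.01 for all genes.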

How the data were processed

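Stranded total RNA libraries of 24 mouse hypothalami were analysed from FPKM per gene symbol, as deposited by the authors. TopHat2 2.0.14, StringTie 1.2.4 and GRCm38 are named in the submitters' processing notes, with no role or order. No annotation release is stated in the sources used here. The authors deposited a Pearson correlation score of each gene with intake and its unadjusted p-value. FPKM keeps no read depth, so the depth and counting precision of each library are unknown. Columns summed to 293850 to 328809 FPKM.

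The scale was log2(FPKM + 0.5), and a filter at mean 1 FPKM left 13806 genes; the pseudocount understates changes of low genes. limma 3.58.1 in R 4.3.3 fitted 8 diet and sex group means using trended, robust moderation of the variance. The slope with intake over all libraries was instead fitted with sex alone, without diet or lane. Adjusted p-values are Benjamini-Hochberg over all genes tested, two-sided, with a threshold of 0.05. Diet contrasts averaged both sexes, slopes are per doubling, and the scripts were tested on simulated data. The 40 members, the gene lists and the rule for named genes were chosen with earlier results of these data known. That rule took key members of each role, the lowest p in each direction and the extremes of spread. Alternatives were other pseudocounts, filters, scaling, weights, moderation, group-only fits, a replicate block, regional marker covariates, intake on its own scale and left-out libraries. Gene positions and transcript lengths are from GENCODE M21.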

Additional observations from a re-analysis of the deposited data

Results flagged for a closer look

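Each value here stood apart from the other 5 libraries of its diet, by a gap to the nearest one that exceeded Dixon's 95% critical share of the range. This was so in 12 of 152 combinations of a gene and a diet. The rule gives about 1 in 20 for independent normal values, which these are not. Each diet mixes both sexes, and several flags fall in the same library. The share over all genes was not counted, so 12 is not read as a result about these genes.

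In BCAA50 male replicate 5, Mtor was at 11.4 FPKM (others 14.0 to 15.2), Tsc1 at 8.18 (9.40 to 10.1), Slc38a9 at 2.00 (2.58 to 2.92) and Eif4ebp2 at 9.73 (11.6 to 12.6). In BCAA200 female replicate 2, Sesn3 was at 17.3 FPKM (others 26.0 to 31.6) and Eif4ebp2 at 8.20 (11.3 to 12.4). Both libraries are those where long transcripts were low relative to the same diet and sex. In BCAA100 male replicate 6, Rptor was at 4.81 FPKM (others 10.4 to 12.9) and Wdr24, a GATOR2 subunit gene, at 5.10 (6.24 to 6.65). In BCAA100 male replicate 5, Rheb was at 52.1 FPKM, above the others, and Sec13 at 15.7 (others 25.8 to 28.9). Sec13 was also low in BCAA50 female replicate 2, at 12.1 FPKM (22.4 to 31.4), and in BCAA200 female replicate 1, at 11.8 (22.8 to 27.2).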

How the results depend on the processing

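None of the 38 genes was called in any of the 12 diet, sex and intake comparisons under any of the 447 combinations of comparison and alternative run, leaving out single libraries included (0 to 0). Of 819 values of 22 named differences under the alternatives, 818 kept their direction and their side of the threshold. The exception was Rps6kb2 in BCAA20 against BCAA100, which went from 0.09 to -0.00156 without the 4 doubted libraries; the cause was not tested. Without BCAA200 female replicate 2, Eif4ebp2 in BCAA200 against BCAA20 was -0.02. Without BCAA50 male replicate 5, Lamtor4 was 0.04 in BCAA50 against BCAA20 and -0.15 in BCAA200 against BCAA50. Among the other values that moved by over 1.5 times, Tbc1d7 between the sexes ranged from 0.03 to 0.25. With single libraries left out, slopes with intake within diets ranged from 0.81 to 1.58 for Rragd and from -1.76 to -0.78 for Depdc5. Over all alternatives these ranges were 0.12 to 1.58 and -2.15 to -0.42. They include a fit with intake on its own scale, whose slopes are not per doubling, so those ranges mix units. Deptor in BCAA200 against BCAA20 ranged from -1.29 to -0.72, with a lowest adjusted p of 0.540.

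For the cortex score, the number of the 38 genes called was 1 (Rragb) with the replicate block, 0 without the 4 doubted libraries, 0 without the 3 libraries low in Slc17a7 and 0 with all 4 regional scores, and 1 to 6 with single libraries left out; the alternatives to this test were chosen after seeing the data. The replicate numbers did not pair the libraries. Of 36 pairs with the same number, correlations of deviations ranged from -0.29 to 0.268 and 6 were over 0.1, and 7 of 24 libraries correlated best with their own number. With the replicate block, 0 of 38 genes were called in each diet, sex and intake comparison. Depth is unknown, which limits statements on genes near 1 FPKM.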
